A study of Zea mays with 18 samples.

Results

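Pools of 8 maize (Zea mays) lines were used to compare opaque2 (o2) mutant with wild-type endosperm across mixed genetic backgrounds. The mutant pool held o2 mutants of A619, B14A, B45, B46, B57, B66, B73 and M14, and the wild-type pool held the wild-type forms of the same 8 lines. Both pools were immature endosperm taken 14 days after pollination, and poly(A) RNA was labelled with Cy3 or Cy5 and hybridised to 2-colour cDNA arrays. The mutant allele, the share of each line in a pool and the number of kernels are not stated in the labels, and a value from a pool cannot be assigned to any of its lines. There were 3 independent pairs of mutant and wild-type samples, each put on 2 arrays with the dyes exchanged, which gave 6 of the 18 arrays of the study. The other 12 arrays compared o2 with wild-type endosperm in the single inbred lines B46 and M14, with 3 pairs each, and are set beside the pools below. Both arrays of a swap carry the same extracts and count as 1 replicate, so n = 3. The arrays measured 7466 clones, and 489 of them carried the name of 1 of 370 genes.

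The product of o2 is a bZIP transcription factor that is active in the endosperm, the storage tissue of the maize kernel. The protein binds the promoters of genes for storage proteins, above all the 22-kDa alpha zeins, and of other endosperm genes such as pyruvate orthophosphate dikinase. Mutant kernels are soft and opaque, hold less zein and more lysine, and for that reason were taken up in breeding for grain quality.

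Values are log ratios of o2 over wild type, centred on the median of each array, so a value of 0 means no difference from the typical clone. The base of the deposited logarithm is not stated and may be 2 or e, so values are given in log units. The direction is not settled. The design text writes the comparisons of the study with wild type first, and every array was taken to hold wild type over o2 and was multiplied by -1. The signs of z1C1_12 and pdk1, both textbook targets of o2, also bore on that choice, so their own signs are no independent evidence for it.

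The pool arrays gave mixed values on this point. Dye-swap partners had a negative correlation in all 3 pool replicates (Pearson r between -0.19 and -0.13, n = 7466 clones). The same held in every replicate of B46 and M14 (r between -0.35 and -0.018). Under the reading used, an o2 effect alone would make partners correlate above 0. The 6 pairs of pool arrays with the same dye orientation but from different replicates correlated above 0 (r between 0.013 and 0.28). Of the 6 pairs with the other orientation from different replicates, 4 were above 0 (r between -0.26 and 0.13). A sign that was the same on all 6 arrays, as an o2 effect would give under the reading used, occurred in 635 clones (376 below 0, or 5.04%, and 259 above 0, or 3.47%), while a sign that followed the labelled dye on all 6 arrays occurred in 511 (239, or 3.2%, and 272, or 3.64%). Both kinds of pattern were therefore present in the pool data, and the main counts, the medians of the lists and the values of the leading clones are also given as turned by the labelled dyes, the reading in which the table would hold Cy5 over Cy3. On each pool array between 46 and 137 clones share 1 value of unstated origin, which touched 390 clones in all, among them 12 of the 376 below 0 and 4 of the 259 above 0 on all 6 arrays.

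Against the arrays of B46 and M14, the labelled dye orientation ran the opposite way in pool replicates 1 and 2. Their arrays correlated above 0 with the B46 and M14 arrays of the other orientation in 12 of 12 pairs each (r between 0.061 and 0.32 in replicate 1, and between 0.070 and 0.35 in replicate 2). With the B46 and M14 arrays of the same orientation, r lay between -0.34 and 0.054 in pool replicate 1 and between -0.26 and -0.023 in pool replicate 2. Pool replicate 3 showed no such contrast, with r between -0.017 and 0.18 for the other orientation and between -0.10 and 0.19 for the same. Among B46 and M14 themselves, all 30 pairs of the same orientation from different replicates were above 0 (r between 0.028 and 0.44), and 1 of 30 pairs of the other orientation was above 0. Whether the dye labels of pool arrays were exchanged was not tested. Under the reading used here the mean of a dye swap does not depend on which array carries which dye, whereas under the labelled-dye reading an exchange would turn the sign of every pool value.

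**Figure D1:**
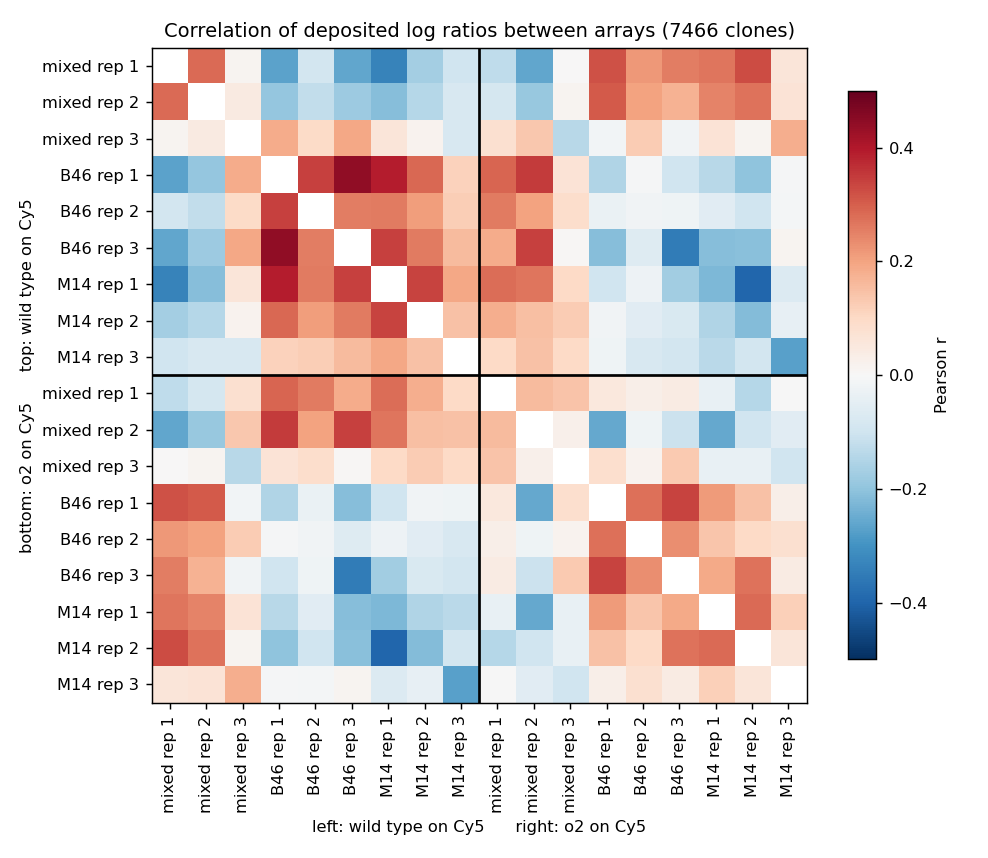
Pearson correlation of deposited log ratios between the 18 arrays over 7466 clones, with arrays of the pools (mixed), B46 and M14 ordered by labelled dye orientation. Arrays of pool replicates 1 and 2 are red (above 0) against the B46 and M14 arrays of the other orientation and mostly blue (below 0) against those of the same orientation.

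No clone passed the test in the pools (0 of 7466, 0%, at a limma adjusted p under 0.05, the lowest being 0.202). An unadjusted limma p under 0.05 was reached by 693 clones (9.28%), where an even spread of p-values would give 373. Of these, 232 were above 0 (3.11%) with a median of 0.37 log units, and 461 were below 0 (6.17%) with a median of -0.63, so the values below 0 were both more numerous and larger. This split rests on the centring: without it every pool mean moved up by 0.056, and 465 clones were above 0 and 350 below, which is 57.1% above 0 against 33.5%. Turned by the labelled dyes, 0 clones passed and 499 reached an unadjusted p under 0.05, 243 above 0 and 256 below. Every gene value below should be read against this: no single clone or gene of the pools passed the test over all clones in these 9 replicates, and the unadjusted limma p only ranks them. That p uses a spread shared with the B46 and M14 replicates, so it does not follow from the pool SD alone.

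The 3 pool replicates differed in spread. The median absolute deviation of their values over all clones was 0.20, 0.26 and 0.13 log units in replicates 1, 2 and 3, and 751, 1053 and 187 clones lay more than 1 log unit from 0. In the mean of the 3 replicates, 233 clones lay beyond 1 log unit, 60 above and 173 below. Across clones, the replicates correlated weakly with each other (r between 0.031 and 0.13, Spearman's rho between 0.16 and 0.20, n = 7466 clones that share each array). In the dye-turned values, replicates 1 and 2 correlated at r = 0.36 (rho = 0.43), and replicate 3 correlated with them at 0.032 and -0.031. All 3 replicates stood above 0 for 1315 clones (17.6%) and below 0 for 1477 (19.8%). Among named clones these counts were 124 of 489 (25.4%) above 0 and 79 (16.2%) below, and among the 6977 unnamed clones 1191 (17.1%) and 1398. In the dye-turned values, 65 named clones (13.3%) were above 0 and 63 (12.9%) below 0 in 3 of 3, beside 1030 (14.8%) and 970 (13.9%) of the unnamed clones, so the larger share of named clones above 0 was not present in that reading.

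The o2 gene itself was measured by 1 clone. It stood at -0.073, -0.56 and -0.058 log units in pool replicates 1, 2 and 3, a mean of -0.23 ± 0.29 (SD, n = 3; limma adjusted p = 0.625). All 3 replicates were below 0, but the mean was smaller than its spread, and the 6 arrays lay on both sides of 0, between -1.05 and 0.11. Turned by the labelled dyes the mean was 0.15. The clone gives no check of the genotype labels, because the mutant allele and the part of the transcript it covers are not stated.

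The gene z1C1_12, for a 22-kDa alpha zein storage protein, had the value farthest below 0 of all 370 gene means. Its replicates stood at -1.99, -1.72 and -1.10, a mean of -1.60 ± 0.45 log units (SD, n = 3), or 3.04-fold lower on base 2 and 4.97-fold lower on the natural log (limma adjusted p = 0.463). It was below 0 on all 6 arrays, between -2.12 and -0.68. In these whole-tissue samples, fewer cells of a type and less RNA per cell cannot be told apart. The other zein, the 18-kDa delta zein gene dzs18, stood at -0.41, -0.56 and -2.27 (mean -1.08 ± 1.03, limma adjusted p = 0.449). Its mean leaned on replicate 3, and its arrays disagreed, with 3.66 and -4.49 on the 2 arrays of replicate 1. Turned by the labelled dyes, z1C1_12 stood at 0.25 and dzs18 at 2.28.

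The gene pdk1, which encodes pyruvate orthophosphate dikinase, stood at -0.69, -0.89 and -0.87 in the 3 replicates. Its mean of -0.82 ± 0.11 log units (SD, n = 3; limma adjusted p = 0.281) is 1.76-fold lower on base 2, or 2.26-fold lower on the natural log. The replicates differed little, all 6 arrays were below 0 (between -1.55 and -0.22), and the dye-turned mean was 0.27. So all 3 measured genes of the o2 list, which holds o2 and its textbook targets, were below 0 in 3 of 3 replicates, against 19.8% of all gene-level features, and 2 of the 3 had an unadjusted limma p under 0.05, against 9.21%. The signs of z1C1_12 and pdk1 bore on the choice of direction, which partly sets this count, and turned by the labelled dyes all 3 means were above 0, so the counts are a description and support nothing.

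Apart from these, the named clones with the lowest p below 0 came from several processes. The clone of LOC541999, for which no function is given in the sources used here, stood at -1.01, -1.27 and -0.56 (mean -0.95 ± 0.36, limma adjusted p = 0.241). The clone of betl2, a gene of the basal endosperm transfer layer through which the kernel takes up sugars and amino acids, stood at -1.03, -1.78 and -0.87 (mean -1.23 ± 0.48, limma adjusted p = 0.241). All 6 arrays were below 0 for betl2. For LOC541999, 5 arrays were between -2.03 and -0.40, while the array of replicate 1 with o2 on Cy5 stood at -0.0019, the value that 125 clones share on that array, so replicate 1 of this gene rests on 1 array. The dye-turned means were -0.32 for LOC541999 and 0.28 for betl2.

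Asn1, which encodes asparagine synthetase, stood at -0.71, -0.68 and -0.65, a mean of -0.68 ± 0.028 log units (limma adjusted p = 0.272). The replicates lay close together, and all 6 arrays lay between -0.89 and -0.52. On base 2 this is 1.60-fold lower, and on the natural log 1.97-fold. The clone 10289 of LOC542547 was nearly as tight, at -0.66, -0.65 and -0.56 (mean -0.62 ± 0.054, limma adjusted p = 0.272), but the other clone of that gene had a mean of 0.27, with the shared value on 1 array. Their dye-turned means were 0.095 for Asn1 and 0.10 for clone 10289.

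The remaining clones of the 12 lowest p below 0 had smaller or less even values. The gene lpa1, whose mutants have seeds low in phytic acid, stood at -0.57, -0.62 and -0.19 (mean -0.46 ± 0.23), and les22, which encodes uroporphyrinogen decarboxylase of porphyrin synthesis, at -0.54, -0.43 and -0.40 (mean -0.46 ± 0.075). Both were below 0 on all 6 arrays, as were the aquaporin gene SIP1-1 (mean -0.50 ± 0.051), 1 clone of the adenine nucleotide translocator gene ANT1 (-0.36 ± 0.075) and DIP1 (-0.36 ± 0.14). For cc10, 1 of 2 clones had -0.30 ± 0.15. The dye-turned means of these clones were closer to 0, at 0.022 for lpa1, -0.0032 for les22, 0.073 for SIP1-1, 0.14 for ANT1, -0.11 for DIP1 and 0.20 for cc10. The other clone of cc10 had a mean of 0.054, and the other clone of ANT1 had 0.00078. One clone of the ribosomal protein gene RPL10 had a mean of -1.23 ± 1.11, which leaned on replicate 1 at -2.51 against -0.58 and -0.59 in replicates 2 and 3. Its arrays differed by dye, with those that carried wild type on Cy5 between -0.22 and 0.40, those with o2 on Cy5 between -5.23 and -0.95, and a dye-turned mean of 1.36. The limma adjusted p of this clone was 0.311, and 0.599 in a fit of the pool replicates alone.

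**Figure D2:**
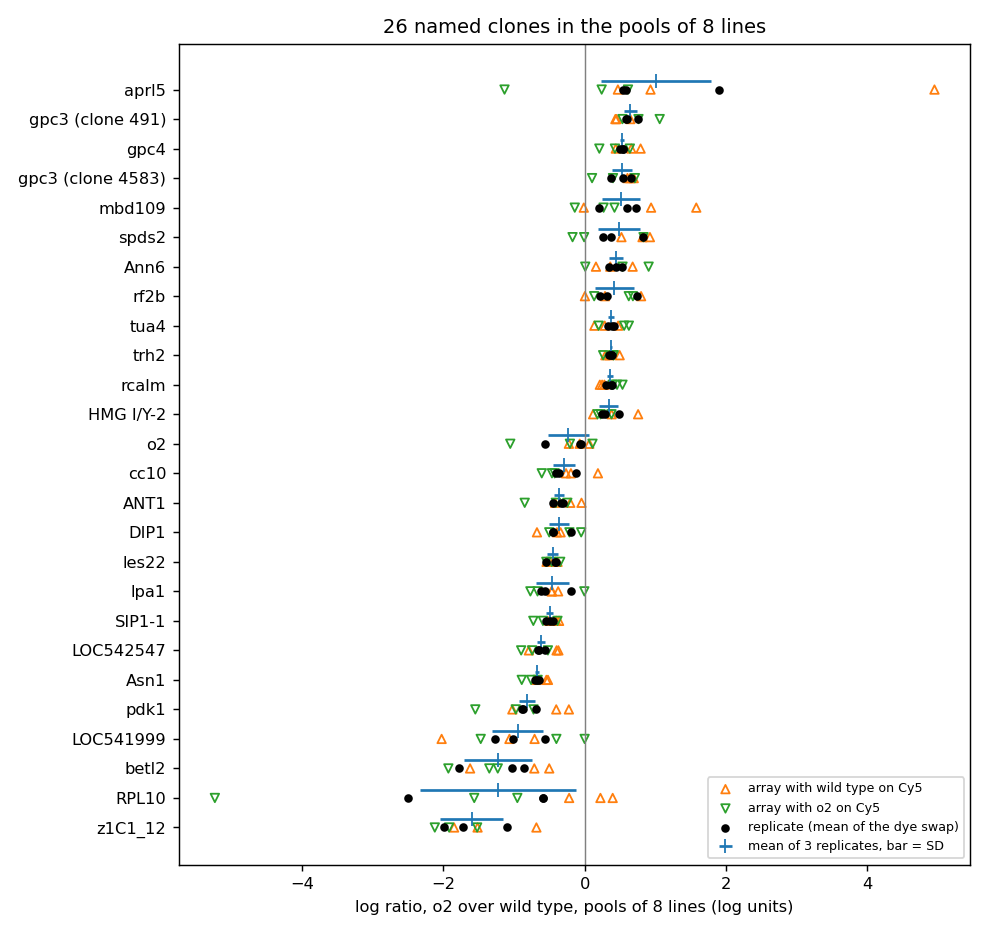
Log ratio of o2 over wild type (log units) in the pools for 26 named clones, namely the 12 with the lowest p on each side of 0 among clones of 1 sign in all replicates, plus z1C1_12 and o2. Open triangles are the 6 arrays, black points the 3 replicates, and blue bars the mean with its SD; the arrays of RPL10 and aprl5 spread far wider than those of Asn1, trh2 or gpc4.

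Above 0, genes of cytosolic glyceraldehyde-3-phosphate dehydrogenase, an enzyme of glycolysis, held 3 of the 12 places with the lowest p. One clone of gpc3 stood at 0.75, 0.60 and 0.59 (mean 0.65 ± 0.093, limma adjusted p = 0.29), and its other clone at 0.55, 0.66 and 0.37 (mean 0.52 ± 0.14, limma adjusted p = 0.369). The clone of gpc4 stood at 0.54, 0.54 and 0.50, a mean of 0.53 ± 0.025 (limma adjusted p = 0.374), or 1.44-fold higher if the base is 2 and 1.69-fold if it is e. All 18 array values of these 3 clones were above 0. The related gene GPC1 was also above 0 on all 6 arrays, with a mean of 0.29 ± 0.20. Near-identical GAPDH transcripts may share signal on cDNA spots, so these clones are not independent of each other. The dye-turned means of these genes were -0.14 and 0.12 for the 2 clones of gpc3, 0.10 for gpc4 and 0.017 for GPC1.

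The annexin gene Ann6, whose product binds membranes with calcium, stood at 0.53, 0.45 and 0.34 (mean 0.44 ± 0.095, limma adjusted p = 0.281). The thioredoxin gene trh2, which encodes a small redox protein, had the tightest of these sets, at 0.35, 0.38 and 0.38 (mean 0.37 ± 0.017, limma adjusted p = 0.281). The clone of HMG I/Y-2, a chromatin protein that binds AT-rich DNA, stood at 0.28, 0.25 and 0.49 (mean 0.34 ± 0.13, limma adjusted p = 0.29). All 3 genes were above 0 on all 6 arrays, and their dye-turned means were -0.041 for Ann6, 0.0099 for trh2 and 0.079 for HMG I/Y-2.

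Other clones of the 12 lowest p above 0 were those of mbd109, which encodes a methyl-CpG-binding domain protein (mean 0.51 ± 0.27), and of the aldehyde dehydrogenase gene rf2b (0.42 ± 0.28). Another was 1 of 3 clones of the spermidine synthase gene spds2 (0.48 ± 0.30), and the lowest clone of that gene had a mean of -0.13. The clone of aprl5 had a mean of 1.01 ± 0.78, with 1.91 in replicate 2 against 0.58 and 0.54 in replicates 1 and 3, and 1 array at 4.95. The limma adjusted p of aprl5 was 0.295, and 0.582 in a fit of the pool replicates alone. One of 4 clones of the alpha tubulin gene tua4 had 0.38 ± 0.043, and 1 of 3 clones of rcalm 0.35 ± 0.044. Of the other clones of tua4, 2 stood close by, at 0.37 ± 0.11 and 0.33 ± 0.094, and both were above 0 on all 6 arrays. The fourth stood apart at -0.66 ± 0.97, with -1.78 in replicate 3, and held the value shared by many clones on 2 of its arrays. The other clones of rcalm had smaller means of 0.12 and 0.077. Dye-turned means were 0.33 for mbd109, 0.27 for spds2, 1.11 for aprl5, -0.059 for rf2b, -0.081 for the first clone of tua4 and -0.11 for that of rcalm.

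The clones of a gene gave a check on single values. Of 94 genes with more than 1 clone, 51 had clones on both sides of 0, and the median range between the clone means of a gene was 0.28 log units. The widest ranges were those of mpao1 (-2.14 to 0.047), ark (-0.97 to 0.53), LOC542766 (-0.030 to 1.23), PIP1-1 (-0.38 to 0.82), zpu1 (-0.74 to 0.44) and tua4 (-0.66 to 0.38). For the gene groups below, clones were averaged by gene and joined by the unnamed clones, giving 7347 features in the fit. Over all of these, 3480 had means above 0, and 17.4% were above 0 and 19.8% below 0 in 3 of 3 replicates. An unadjusted limma p under 0.05 was reached by 9.21%, and 0 passed at an adjusted p under 0.05. Of the 370 named genes, from which the lists are drawn, 184 had means above 0. In 3 of 3 replicates, 23.0% of the named genes were above 0 and 15.7% below. The lists are short, since the annotation named few clones. The counts of each list below are to be read against these shares, above all those of the named genes, and were not tested.

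Of 10 genes of glycolysis and fermentation, 7 had means above 0, 5 were above 0 in 3 of 3 replicates and 0 were below 0 in 3 of 3. Among all named genes, 23.0% were above 0 and 15.7% below 0 in 3 of 3. The highest values were those of gpc3 at 0.59 ± 0.092, gpc4 at 0.53 ± 0.025, the pyruvate decarboxylase gene pdc3 at 0.36 ± 0.23 and GPC1 at 0.29 ± 0.20 (SD, n = 3). Only the GAPDH genes of this list had an unadjusted limma p under 0.05. The lowest value was that of the glucose phosphate isomerase gene phi1, at -0.073 ± 0.090, and the alcohol dehydrogenase gene adh1 stood at -0.00058 ± 0.25. The median of the list was 0.095 log units, against -0.014 over all features, and -0.049 when turned by the labelled dyes.

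Genes of sucrose cleavage, the first step of carbon use in the endosperm, had a median of 0.19 over 3 genes. The cell wall invertase gene mn1 stood at 0.36 ± 0.49, with 0.92 in replicate 2 against 0.025 and 0.13. The sucrose synthase gene sh1 stood at 0.19 ± 0.058 and sus1 at 0.00022 ± 0.083. No gene of this list had an unadjusted limma p under 0.05.

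Of 8 genes of starch synthesis and debranching, 0 had an unadjusted limma p under 0.05, and their median was 0.013. The values ran from -0.28 ± 0.31 for the isoamylase gene iso3 to 0.17 ± 0.052 for AGPLS3, a large subunit of ADP-glucose pyrophosphorylase. The granule-bound starch synthase gene wx1 had 0.16 ± 0.053, the branching enzyme gene ae1 had 0.088 ± 0.16, and bt1, which encodes the ADP-glucose carrier of the plastid, had 0.0054 ± 0.014. The 4 clones of bt1 lay on both sides of 0.

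Among 8 genes of amino acid metabolism, Asn1 was lowest at -0.68. The methionine pathway gene cgs1, which encodes cystathionine gamma-synthase, stood at 0.44, 0.48 and 0.28, a mean of 0.40 ± 0.11 and an unadjusted limma p of 0.0236. All 6 of its arrays were above 0. The homocysteine methyltransferase gene HMT-2 was highest at 0.63 ± 0.50, with its largest value in replicate 1, where 1 of the 2 arrays held the shared value. The tryptophan synthase genes TSB1 and TSB2 had -0.17 ± 0.072 and -0.12 ± 0.21. The median of the list was -0.042, with 3 genes above and 2 below 0 in 3 of 3 replicates.

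Of 12 genes of folding in the endoplasmic reticulum, where zeins are folded and packed into protein bodies, 0 had an unadjusted limma p under 0.05. The chaperone gene bip1 had -0.0072 ± 0.0099, the calreticulin gene crt2 -0.0015 ± 0.12 and the calnexin gene CNX 0.0092 ± 0.090, all with means near 0. The range of the list was set by 2 protein disulfide isomerase genes with uneven replicates, PDIL1-5 at 0.59, -1.90 and -0.13 (mean -0.48 ± 1.28) and PDIL2-1 at -0.53, 1.10 and 1.74 (mean 0.77 ± 1.17), the second with the shared value on 2 arrays. PDIL1-1 was below 0 on all 6 arrays, with a mean of -0.46 ± 0.30. The median of the list was -0.0044.

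Of 6 heat shock protein and chaperonin genes, hsp22 was lowest at -0.45 ± 0.20, hsp18f, with a clone at the shared value on 1 array, highest at 0.56 ± 0.68, and the median was 0.056. The chaperonin gene CPNA stood at -0.24 ± 0.16 and was below 0 on all 6 arrays. The 12 ribosomal protein genes had a median of -0.042. RPL10, at -0.78 ± 1.06 as the mean of 2 clones, was the only member with an unadjusted limma p under 0.05, and rpp2b was highest at 0.25 ± 0.36. The 9 translation factor genes had a median of 0.12, with 5 above 0 in 3 of 3 replicates and 0 below; GOS2 was highest at 0.24 ± 0.18 and eIF3A lowest at -0.45, a mean set by -1.84 in replicate 1 against 0.35 and 0.13 in the others. None of the translation factors had an unadjusted limma p under 0.05.

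Of 16 genes of tubulin, actin and cell division, 11 had means above 0, 6 were above 0 in 3 of 3 replicates and 0 were below 0 in 3 of 3. The highest was TUA1, an alpha tubulin gene, at 1.21, 0.33 and 0.21 (mean 0.58 ± 0.54). The lowest was MCM6, a subunit of the replication helicase, at -0.16 ± 0.42. The list had a median of 0.10, turned to -0.039 by the labelled dyes, and no member had an unadjusted limma p under 0.05. The 13 histone and chromatin genes had a median of 0.037, with HMG I/Y-2 highest at 0.34. The gene his1 was lowest at -0.75 ± 1.37, from -2.33 in replicate 3 against 0.026 and 0.050 in the others.

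Of 6 calcium and annexin genes, 5 had means above 0 and 4 were above 0 in 3 of 3 replicates. Ann6 (0.44) and rcalm (0.18 ± 0.059 over 3 clones) had an unadjusted limma p under 0.05, and the gene annotated as calmodulin was lowest at -0.34 ± 0.34. The median was 0.14 and turned to -0.034 by the labelled dyes. Of 15 genes for glutathione transferases, thioredoxins and antioxidants, trh2 (0.37) was highest and the only one with an unadjusted limma p under 0.05. The superoxide dismutase gene sod2 was lowest at -0.52 ± 0.83, and the median was -0.0028.

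The 9 aquaporin genes, which encode membrane channels for water and small solutes, had a median of 0.052. SIP1-1 (-0.50) and PIP2-1 (0.21 ± 0.031 over 2 clones) had an unadjusted limma p under 0.05, and lay on opposite sides of 0. The lowest was SIP2-1 at -0.55 ± 1.36 and the highest PIP1-1 at 0.22 ± 0.25. The 5 cellulose synthase genes had a median of 0.17 and uneven replicates, from cesa2 at -1.46 ± 1.31 to cesa7 at 0.35 ± 0.30. The 4 genes of mitochondrial energy had a median of -0.040, from ANT1 at -0.18 ± 0.099 over 2 clones to ANT2 at 0.071 ± 0.049.

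The medians of these lists, when turned by the labelled dyes, lay nearer to 0 or on its other side in most cases. Those that kept their sign were sucrose cleavage (0.051), amino acid metabolism (-0.019), heat shock (0.038), ribosomal proteins (-0.0085), translation factors (0.035), histones and chromatin (0.039) and the antioxidant list (-0.062). Those that changed it, beside glycolysis, cell division and calcium given above, were starch (-0.028), folding (0.037), aquaporins (-0.10), cellulose synthases (-0.11) and mitochondrial energy (0.093). The value of cgs1 also changed sign, to -0.14.

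**Figure D3:**
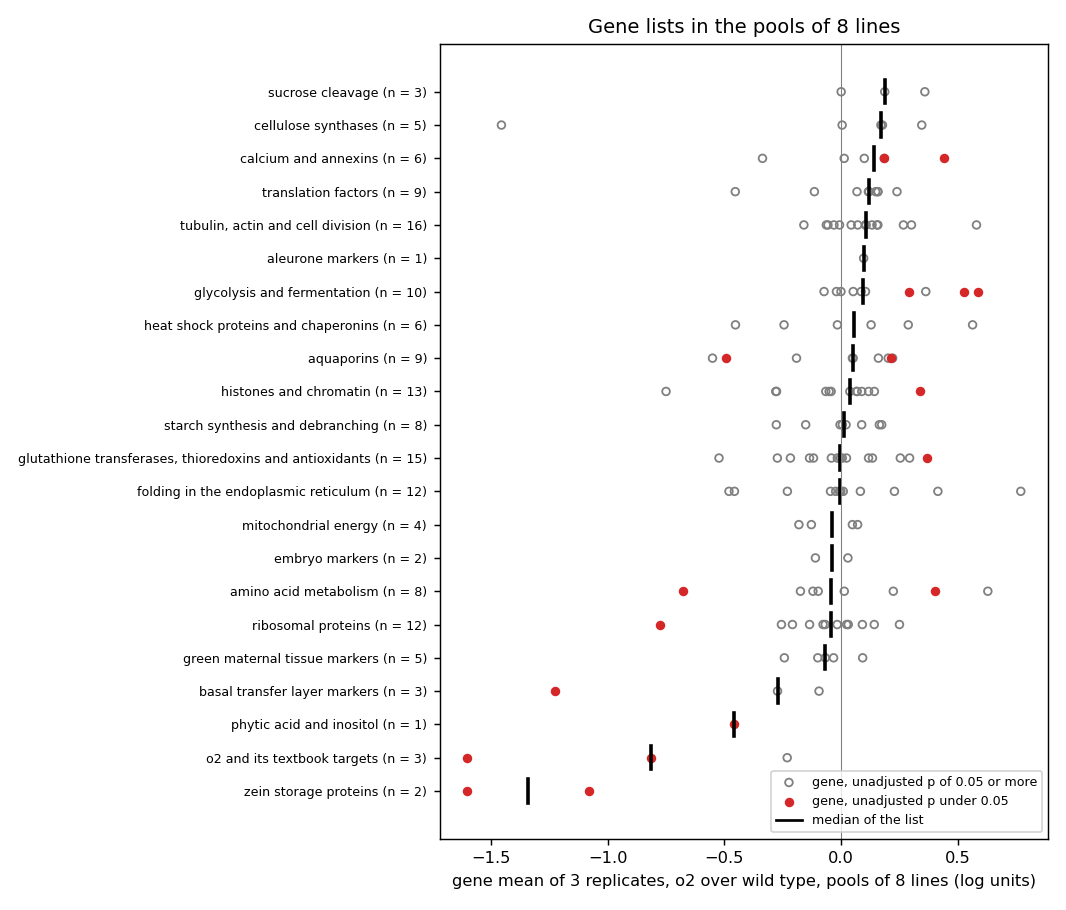
Mean log ratio of o2 over wild type (log units, n = 3 replicates) of each measured gene in the pools, by gene list, with the list median as a black bar and genes of an unadjusted limma p under 0.05 in red. The zein gene z1C1_12 has the lowest value of the genes shown, followed by cesa2 and betl2, and gpc3 and gpc4 have the highest values within glycolysis and fermentation; 0 of 370 genes passed at an adjusted p under 0.05.

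Markers of other kernel tissues were set beside these values. Of 3 basal transfer layer genes, betl2 stood at -1.23, while betl4 had -0.68, -0.26 and 0.12 (mean -0.27 ± 0.40) and meg2 had -0.35, -0.21 and 0.28 (mean -0.095 ± 0.33). The summed level of these markers cannot be given, because the files hold ratios. The aleurone gene PLTP had 0.097 ± 0.27, the embryo genes ole1 and dhn2 had 0.029 ± 0.036 and -0.11 ± 0.11, and the 5 green maternal tissue genes had a median of -0.068, from lhcb5 at -0.24 ± 0.18 to PSBQ at 0.092 ± 0.11. The dye-turned medians were 0.045 for the transfer layer list and 0.034 for the green tissue list. Only betl2 among these 11 genes had an unadjusted limma p under 0.05. The part that a different amount of transfer layer tissue may have in the value of betl2 was not tested. The list of other storage proteins had no named member, and that of pericarp and pigment genes had none after the corrections by hand. The symbol of chs1 fits the pericarp and pigment list, but the gene was left outside it by hand and is given below. It had an unadjusted limma p under 0.05, so the statement on betl2 holds only for the lists after these corrections.

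Of the 370 genes, 17 above 0 and 17 below had an unadjusted limma p under 0.05, which is 9.19% and near the 9.21% of all features, and 17 of them stood outside the lists. Below 0 in 3 of 3 replicates were les22 and LOC541999, the aldo-keto reductase gene AR6 (-0.39 ± 0.13), DIP1 (-0.30 ± 0.16 over 2 clones), LOC542610 (-0.27 ± 0.19), the response regulator gene RR10 (-0.20 ± 0.11), stv3 (-0.59 ± 0.43) and chs1 (-1.15 ± 1.07). Above 0 in 3 of 3 replicates were aprl5, mbd109, rf2b, LOC542766 (0.60 ± 0.54 over 2 clones, 1 with the shared value on 3 arrays), the beta-amylase gene BMY1 (0.27 ± 0.24), the homeobox gene ocl4 of the outer cell layer (0.28 ± 0.30) and Nkd1, which encodes a zinc finger regulator of endosperm and aleurone development (0.21 ± 0.11). The other 2 had replicates on both sides of 0, namely the germin-like gene GLP2 (0.94 ± 0.98) and aprl8 (-1.04 ± 1.10), which held the shared value on 3 arrays. Of the 17, 7 changed sign when turned by the labelled dyes: AR6 (0.068), RR10 (0.029), rf2b (-0.059), BMY1 (-0.20), Nkd1 (-0.069), GLP2 (-0.35) and aprl8 (0.57).

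The pools were then set beside the single lines. There were 564 clones below 0 in all 6 replicates of the lines, and 394 of these (69.9%) were also below 0 in 3 of 3 pool replicates, against 19.8% of all clones. Only 10 (1.77%) were above 0 in 3 of 3. Of 440 clones above 0 in all 6 of those replicates, 205 (46.6%) were above 0 in 3 of 3 pool replicates, against 17.6% of all clones, and 14 (3.18%) were below. The pool medians were smaller than those of the lines: -0.37 in the pools and -0.49 in the lines for the clones below 0, and 0.11 and 0.26 for those above. The clones were chosen on the B46 and M14 values, which by itself draws those medians away from 0, so the smaller values in the pools are a description and no test. Since B46 and M14 are 2 of the 8 lines, a part of the pool RNA has the same genotypes. The agreement also rests on the reading used. If the arrays hold Cy5 over Cy3, the unturned mean of a dye swap cancels an o2 effect and keeps any dye effect of a clone. Pools and lines could share such a dye effect, and its part in these shares was not tested.

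**Figure D4:**
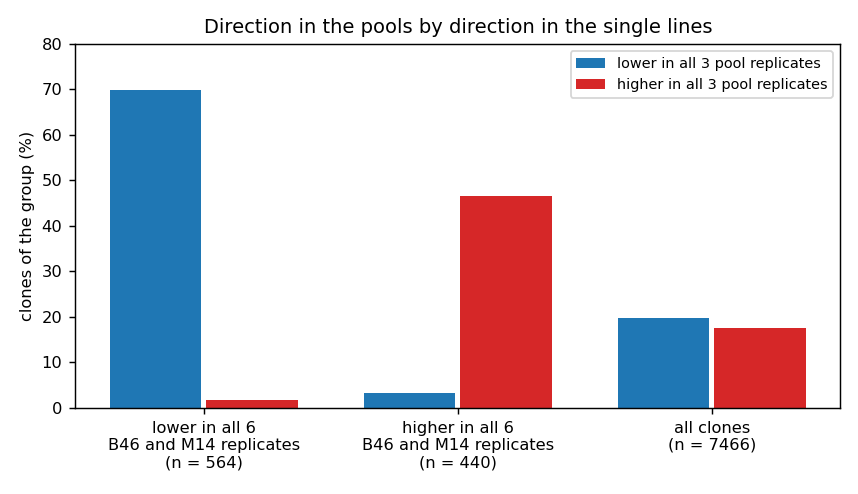
Share of clones (%) that were below 0 (blue) or above 0 (red) in all 3 pool replicates, for clones below 0 or above 0 in all 6 replicates of B46 and M14 and for all 7466 clones. The blue bar of the first group stands at 69.9% and the red bar of the second at 46.6%, against 19.8% and 17.6% of all clones.

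Clones called in B46 at a limma adjusted p under 0.05 (341 of 7466, 4.57%) showed the same contrast. Of 273 called lower there, 260 (95.2%) were below 0 in 3 of 3 pool replicates, with a median of -0.61 in the pools, -1.04 in B46 and -0.45 in M14. Of 68 called higher, 51 (75%) were above 0 in 3 of 3, with medians of 0.27 in the pools, 0.63 in B46 and 0.18 in M14. The B46 calls come from a fit whose spread also includes the pool replicates, so they favour clones whose pool replicates lie close together, and these percentages are not free of that choice. They rest on the reading used in the same way as the shares above. Over all 7466 clones, the pool means correlated with those of B46 at r = 0.33 and with those of M14 at r = 0.19, given as a description across clones of shared arrays.

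Turned by the labelled dyes, the pools ran opposite to the lines. Of 672 clones above 0 in all 6 replicates of B46 and M14 under that reading, 209 (31.1%) were below 0 in 3 of 3 pool replicates and 9 were above. Of 608 below 0, 218 (35.9%) were above 0 in 3 of 3 pool replicates and 11 were below. The pool means then correlated at r = -0.50 with B46 and -0.52 with M14. The opposition came from pool replicates 1 and 2: the clones above 0 in the lines had medians of -0.30 and -0.45 in these replicates and 0.086 in replicate 3, and those below 0 had 0.30, 0.33 and -0.00075.

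The difference between the pools and the mean of B46 and M14 was tested in the same fit. No clone passed (0 of 7466, 0%, limma, lowest adjusted p = 0.958), and 247 reached an unadjusted p under 0.05 (3.31%), where 373 would follow from an even spread of p-values. Of these, 105 (1.41%) were higher in the pools and 142 (1.9%) lower. Turned by the labelled dyes, 1643 clones reached an unadjusted limma p under 0.05 (792 higher, 851 lower) and 0 passed; with the dye labels of the pool arrays exchanged as well, 215 did. A difference between pools and lines was thus not detectable for any clone at this number of arrays, which does not show that they were alike.

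The intervals around single differences were wide. For z1C1_12 the pools stood at -1.60 against -2.89 in B46 and -2.26 in M14, and the difference from the mean of the lines was 0.97 ± 0.73 log units (SE, limma adjusted p = 0.958). For pdk1 the values were -0.82 in the pools, -1.68 in B46 and -0.73 in M14 (difference 0.39 ± 0.23), and for les22 they were -0.46, -1.23 and -0.37 (difference 0.34 ± 0.16). The pools lay nearer to M14 than to B46 for both genes. For o2 the difference was 0.29 ± 0.16, with -0.23 in the pools, -0.67 in B46 and -0.37 in M14. Values close to the mean of the lines were found for gpc3 clone 491 (difference 0.0065 ± 0.21), SIP1-1 (-0.011 ± 0.18), DIP1 (0.0057 ± 0.15) and HMG I/Y-2 (0.020 ± 0.11).

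The named clones with the lowest p of the difference included some far from 0 in the pools and others far from 0 in a line. Higher in the pools were mbd109 (0.51 in the pools, 0.17 in B46 and -0.33 in M14), PDIL5-4, a protein disulfide isomerase gene (0.23, 0.037 and -0.34), mn1 (0.36, -0.20 and -0.22), MSH1, a MutS homologue (0.14, -0.35 and -0.47), and GLP2 (0.94, -0.0028 and -0.35). Lower in the pools were stv3 (-0.59, -0.14 and 0.36), RPL10 clone 8991 (-1.23, -0.13 and -0.027), gpt (-0.13, 0.0069 and 0.26), the homeobox gene hox3 (-0.061, 0.075 and 1.43) and aprl8 (-1.04, 0.86 and -0.45). Their limma adjusted p was 0.958 throughout, so none of these differences passed. In the pools mn1 (-0.23), GLP2 (-0.35), PDIL5-4 (-0.18), MSH1 (-0.054), hox3 (0.19), RPL10 (1.36) and aprl8 (0.57) changed sign when turned by the labelled dyes.

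**Figure D5:**
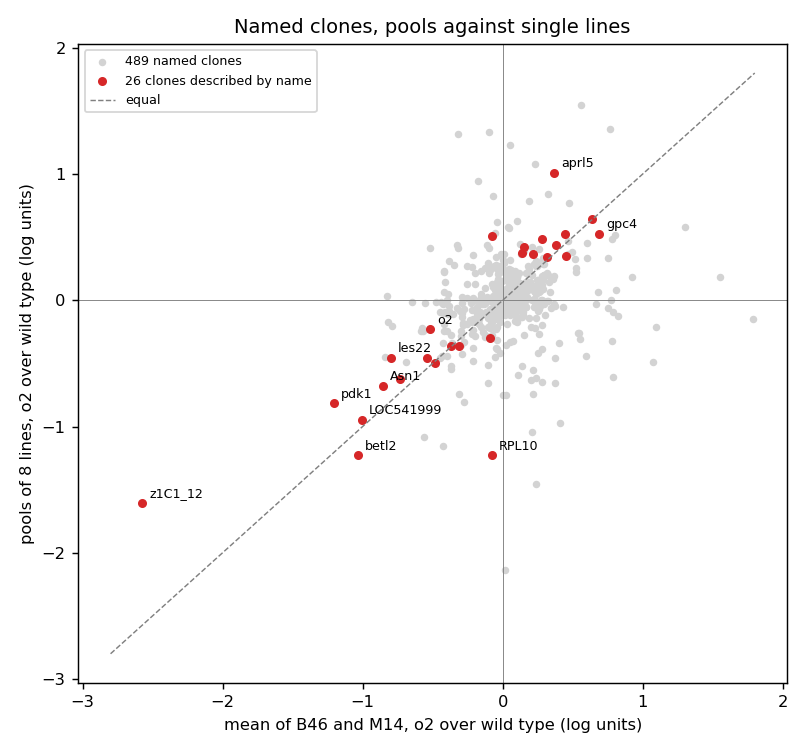
Mean log ratio of o2 over wild type (log units) in the pools against the mean of B46 and M14 for 489 named clones (grey), with the 26 clones described by name in red and a dashed line where both are equal. Clones such as z1C1_12 and pdk1 lie above that line, betl2 lies just below it, and RPL10 stands apart with -1.23 in the pools and a value near 0 in the lines.

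Most of the clones with low p carry no name. Of the unnamed clones, those with the lowest p below 0 were clone 10113 at -0.63, -0.68 and -0.84 (mean -0.72 ± 0.11), clone 2259 at -1.03, -1.12 and -0.92 (mean -1.03 ± 0.096) and clone 8527 with a mean of -1.39 ± 0.29 and -1.72 in replicate 1. Above 0 they were clone 4235 at 0.49, 0.74 and 0.56 (mean 0.60 ± 0.13), clone 12143 at 0.75, 0.51 and 0.64 (mean 0.63 ± 0.12) and clone 7433 at 0.88, 0.68 and 0.67 (mean 0.74 ± 0.12). Each had a limma adjusted p of 0.202. In each the 3 replicates lay well to 1 side of 0, which follows from the choice by low p and adds no evidence. Clone 4235 stood near 0 in both lines, at 0.065 in B46 and -0.053 in M14, while clone 8527 stood at -1.42 and -0.79. Of these 6 clones, 3 changed sign in the pools when turned by the labelled dyes, clone 4235 to -0.22, clone 10113 to 0.15 and clone 2259 to 0.21.

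Other settings of the fit called some of these clones. After scaling every array to a common spread, 58 clones passed (1 higher, 57 lower), among them LOC541999, Asn1, clone 10289 of LOC542547 and betl2. With all 18 arrays in the fit and the dye swap as a random block, 205 passed (37 higher, 168 lower), 16 of them named, and 57 clones passed in both fits, which is 98.3% of the first set and 27.8% of the second. The second fit counts both arrays of a pair, whose consensus correlation was -0.24. A correlation below 0 between partners makes the SE of a mean smaller than for independent arrays, so these calls rest in part on it. Neither set of clones passed in the unscaled replicate means.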

How the data were processed

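Endosperm RNA was compared on 2-colour arrays whose images were read with ImaGene 4.1, per the labels. The authors deposited 1 log ratio per array and row, read here as log2 or natural log since the base is not given in the sources used here; normalization and background handling are not given either. Of 16560 rows, 14932 held values, 2 identical rows for each of 7466 clones. Scanner intensities were not used, and the number of arrays limits precision.

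Array values were centred on the array's median, multiplied by -1 and averaged with its dye-swap partner. limma 3.58.1 in R 4.3.3 (lmFit, eBayes) was fitted to 9 replicates of the pools, B46 and M14, with a mean per comparison and no covariate. The pools were tested against 0 and against the mean of both lines, with Benjamini-Hochberg adjustment and a threshold of 0.05. The fit was tested on simulated data. The samples are called independent in the design text, which does not state whether they came from separate plants. So p-values measure the spread between these samples, shared over the pools, B46 and M14.

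Names came from a platform annotation, updated by gene identifier through a table of Zm-B73-REFERENCE-NAM-5.0 (360 of 370 genes matched). Of 19 gene lists and 5 marker lists, 2 were empty; 11 genes were added and 11 removed by hand from symbols. Members, lists and tests were chosen with earlier results of these data known. Named are o2 and its targets, the 12 lowest p on each side, the extremes of each list and its members with an unadjusted p under 0.05, the 5 lowest p of the difference on each side, the 6 unnamed clones with the lowest p, and the widest of the genes whose clones differ in sign.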

Additional observations from a re-analysis of the deposited data

Results flagged for a closer look

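One clone of adh2, an alcohol dehydrogenase gene of fermentation, was the only named clone above 0 in 3 of 3 pool replicates and below 0 in all 6 replicates of B46 and M14. Clone 4553 stood at 0.061, 0.033 and 0.29 log units in the pools, a mean of 0.13 ± 0.14 (SD, n = 3), and its means were -0.086 in B46 and -0.31 in M14. The difference between the pools and the mean of both lines was 0.32 ± 0.16 log units (SE) and did not pass the test (limma adjusted p = 0.958, unadjusted 0.0782). The other clone of adh2 stood at 0.16, -0.29 and 0.27 in the pools. Of 623 clones that kept 1 sign within the pools and 1 sign within both lines, 599 had the same sign in both and 24 the opposite.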

How the results depend on the processing

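Of 461 clones below 0 with an unadjusted p under 0.05, 258 were below 0 on all 6 pool arrays, and of 232 above 0, 109 were above 0 on all 6. Over all clones these patterns were found in 5.04% and 3.47%. The p comes from the mean of the same 6 arrays, so larger shares follow from the choice of clones and are no test. Leaving out 1 of the 9 replicates at a time gave 0 to 2 calls in the pools, 2 without pool replicate 3 and 0 without any other; for the difference it gave 0 to 1, 1 without pool replicate 3 and 0 without any other. The count in the pools was 58 with every array scaled to 1 common spread and 205 with all 18 arrays in the fit; it stayed at 0 without centring, turned by the labelled dyes, with the dye labels of the pool arrays exchanged, on the pool replicates alone, with trend and robust options, with weights, with both filters on clones and with genes averaged, and the difference count was 0 in each of these that applies. With the replicate number as a block, 0 clones were called in either comparison, with 701 and 268 at an unadjusted p under 0.05; numbers did not pair the samples (r of same-numbered deviations between -0.034 and 0.10). Of 26 named clones, all kept their sign in every setting but the labelled-dye one (25 in the fit without shared values), which turned 16: o2 to 0.15, pdk1 0.27, z1C1_12 0.25, betl2 0.28, Asn1 0.095, clone 10289 of LOC542547 0.10, lpa1 0.022, RPL10 1.36, ANT1 0.14, SIP1-1 0.073, cc10 0.20, Ann6 -0.041, gpc3 clone 491 -0.14, rcalm -0.11, tua4 -0.081 and rf2b -0.059. The cause was not tested. The signs that were kept are no evidence, since most of the other settings leave the pool mean of a clone unchanged. Each of the 26 clones also has 1 sign in all pool replicates, for most of them by the rule that picked them. Leaving out or weighting a pool replicate therefore could not turn the mean. With all 18 arrays 15 of the 26 passed, and with scaling 4.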

Other observations

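The highest gene means of the pools came with uneven replicates. CenpcA, with the value shared by many clones on 2 of its arrays, stood at 2.36, 1.73 and 0.55 log units, SET102 at 0.38, 3.30 and 0.39, Pti1d at 0.30, 3.52 and 0.19, and fdx3 at 0.32, 0.46 and 3.16. All were above 0 in 3 of 3 replicates, and Pti1d and fdx3 on all 6 arrays, yet their SDs of 1.89 for Pti1d and 1.60 for fdx3 exceeded their means of 1.34 and 1.31, and none had an unadjusted limma p under 0.05.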
